A study of Mus musculus with 19 samples.

Results

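The measurement described here is the change in RNA that goes with antibody blockade of PD1 in carcinogen-induced squamous carcinomas of the mouth, strain C57BL/6J, taken over mice with and without regorafenib. Of the 19 RNA-sequencing libraries in the series, 16 were used: 8 from mice given anti-PD1 and 8 from mice not given it. Tumours were induced by 4-nitroquinoline 1-oxide (4NQO), a DNA-damaging carcinogen, given at 100 µg/ml in drinking water for 10 weeks from an age of 6 weeks, followed by plain water. All 4 groups received 4NQO. They were vehicle (4 libraries), regorafenib at 5 mg/kg/day (4 libraries), anti-PD1 (3 libraries) and anti-PD1 with regorafenib (5 libraries). Regorafenib blocks multiple kinases, including VEGF and PDGF receptors and KIT. The labels give no antibody clone, no antibody dose and no separate regorafenib dose for the combination. The other 3 libraries, from mice given an agonist antibody against CD40, were left out.

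PD1 is an inhibitory receptor that activated T cells carry and that tumours engage through its ligand PD-L1. Released T cells secrete interferon-gamma, which acts through JAK kinases on nearby tumour cells, macrophages and stroma. The responding cells then make the chemokines CXCL9 and CXCL10, guanylate-binding proteins and immunity-related GTPases, and the machinery that presents antigen on MHC molecules. CXCL9 and CXCL10 draw in further T cells through the receptor CXCR3. The comparison asks which genes moved with anti-PD1 whether or not regorafenib was given, so the model held 1 term for anti-PD1 and 1 for regorafenib (the additive model), and the anti-PD1 term is called the main effect below. The change was also estimated inside each stratum, as anti-PD1 against vehicle and as the combination against regorafenib. Those 2 contrasts share no library.

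Levels are CPM, each library's counts scaled to a common total. Totals ran from 16776177 to 24969492 counts per library. The tissue label was checked against markers: the squamous keratin gene Krt13 ran from 22821 to 32055 CPM, and the leukocyte gene Ptprc from 6.18 to 15.9 CPM. Muscle RNA was abundant as well, with Ckm, the muscle creatine kinase gene, between 2333 and 4423 CPM. The 4 regorafenib libraries stood apart from the other 12. Pgc, which encodes the stomach protease precursor pepsinogen C, had 41.2, 38.3, 5.47 and 51.9 CPM there and at most 0.119 CPM in the other libraries. The summed level of 21 skeletal muscle genes was 33548 to 42928 CPM in the regorafenib libraries and 46293 to 63043 CPM in the other 12. Krt14, a basal keratinocyte keratin gene, ran from 3380.3 to 4650 CPM in the regorafenib libraries and from 1505 to 3591 CPM in the others, where 1 combination library reached into the regorafenib range. Salivary gland genes ranged widely in every group, from 39.3 to 19704 CPM over 14 genes in vehicle and from 918 to 18686 CPM in the combination. The part of these differences in tissue content in the results below was not tested except where a value is given. In bulk tissue, fewer cells of a type and less RNA per cell cannot be told apart. The labels do not say that each library came from a separate mouse, so the p-values speak only to spread among these samples, which may be technical.

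Anti-PD1 went with many small changes. Of 16797 genes tested, 386 (2.3%) passed an adjusted p of 0.05 in edgeR's quasi-likelihood F-test with Benjamini-Hochberg adjustment, 183 higher (1.09%) and 203 lower (1.21%). The median size of a called change was 0.29 on the log2 scale, or 1.22-fold, and only 7 of the called rises and 9 of the called falls reached 2-fold. Among the rises at that size were the CXCR3 ligands Cxcl10 and Cxcl9 and the interferon-inducible GTPase genes Gbp2, Tgtp2 and Igtp. The falls at that size were mostly stomach genes with far more counts in the regorafenib libraries than elsewhere. Most calls lay just inside the threshold: 22 genes had an adjusted p of at most 0.04 and 364 lay above it. At an unadjusted p under 0.05 there were 4121 of the 16797 genes. With other methods, DESeq2 called 1594 of the 16797 genes and limma-voom 1686. Counts of list members called, or at an unadjusted p under 0.05, are to be read beside the share of all tested genes by the same method. The median exon length was 4965 bases for the called higher genes, 2611 for the called lower genes and 3959 for all tested genes.

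The count of called genes moved with single libraries. Leaving out 1 library gave between 5 genes (without combination 1) and 1519 (without anti-PD1 3). Counts stayed within 1.5 times of 386 without vehicle 2 (297) and without combination 4 (377). Leaving out vehicle 4 gave 1412, combination 2 gave 216, anti-PD1 1 gave 51, vehicle 1 gave 36, vehicle 3 gave 23 and regorafenib 3 gave 20. Without combination 3, combination 5 or regorafenib 4 there were 14 genes, without regorafenib 1 there were 8, and without anti-PD1 2 or regorafenib 2 there were 7. None of the 386 estimates changed sign in any of these 16 fits. These genes were chosen for a small p in the same libraries, so the stable sign is a description and no support. Calls were also lost in other fits. With all 19 libraries 18 genes were called, with the mean log2 CPM of the muscle genes as a covariate 2, and without the 4 regorafenib libraries edgeR called 0, with 1604 at an unadjusted p under 0.05. In each of these 3 fits no gene of the CXCR3 axis, the interferon-inducible GTPases, the type I interferon list or the p200 genes was called. To 2 decimals their medians were no lower there: that of the GTPases was 0.91, 1.03 and 1.13, against 0.91 as reported. Without the regorafenib libraries the anti-PD1 term compares anti-PD1 with vehicle only. That fit nearly repeats the stratum without regorafenib and is no separate check of the main effect. Some stromal and muscle estimates were smaller there than in the main effect: Abcc9 0.15 against 0.45, Pdgfra 0.19 against 0.42 and Cacna1s 0.09 against 0.39. Every call named below carries this limit.

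**Figure D1:**
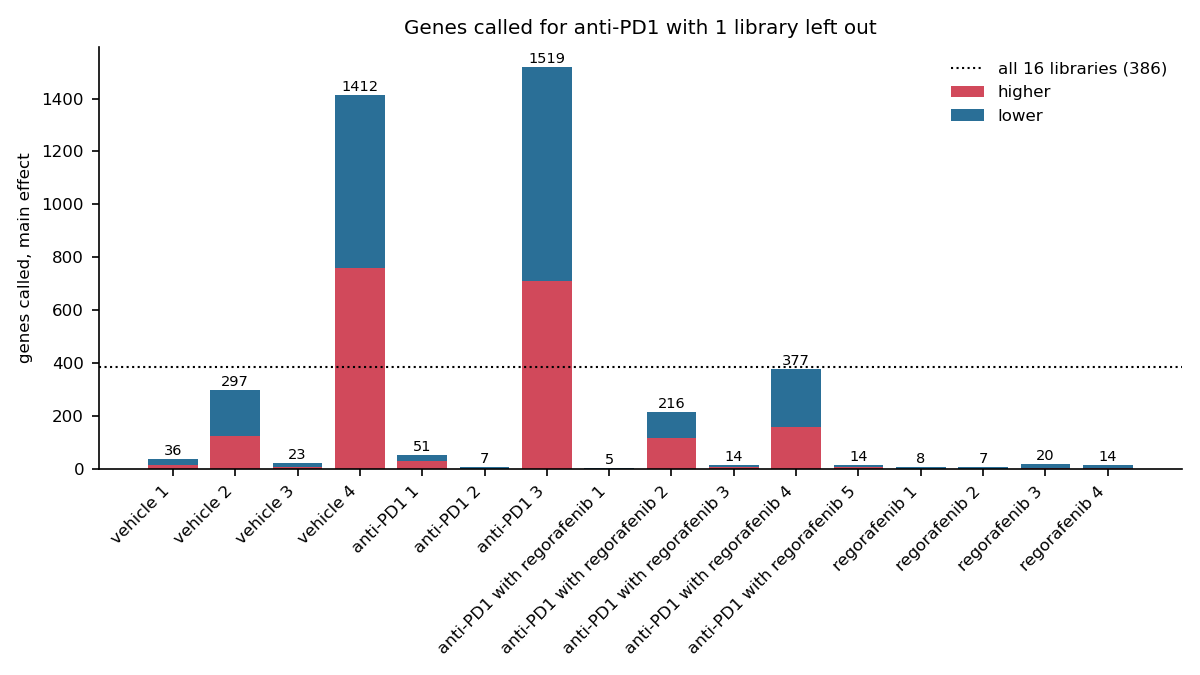
Number of genes called for the anti-PD1 main effect (y axis, edgeR, adjusted p under 0.05) after leaving out the library named on the x axis, split into higher and lower genes; the dotted line is the count with all 16 libraries, 386. Counts run from 5 without combination 1 to 1519 without anti-PD1 3.

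Called genes moved the same way in the 2 strata with few exceptions, in part because the additive call uses both. All 183 higher genes had a positive estimate with and without regorafenib, and 197 of the 203 lower genes a negative one. The 6 exceptions were the stomach genes Pla2g1b, Atp4a, Gkn2, Gkn1, Mucl3 and Atp4b. The median change of the higher genes was 0.21 without and 0.45 with regorafenib, and that of the lower genes -0.17 and -0.31. Over all tested genes the changes in the 2 strata had a Pearson r of -0.01 and a Spearman rho of 0.17, a description across genes, which are not independent replicates. At an unadjusted p under 0.05 in each stratum, 145 genes rose in both (0.863%), 158 fell in both (0.941%) and 198 went opposite ways. Taken alone, the stratum without regorafenib had 0 genes called by edgeR, 1731 at an unadjusted p under 0.05, 106 by DESeq2 and 0 by limma-voom. The stratum with regorafenib had 2223 genes called (13.2%), of which 316 were among the 386.

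**Figure D2:**
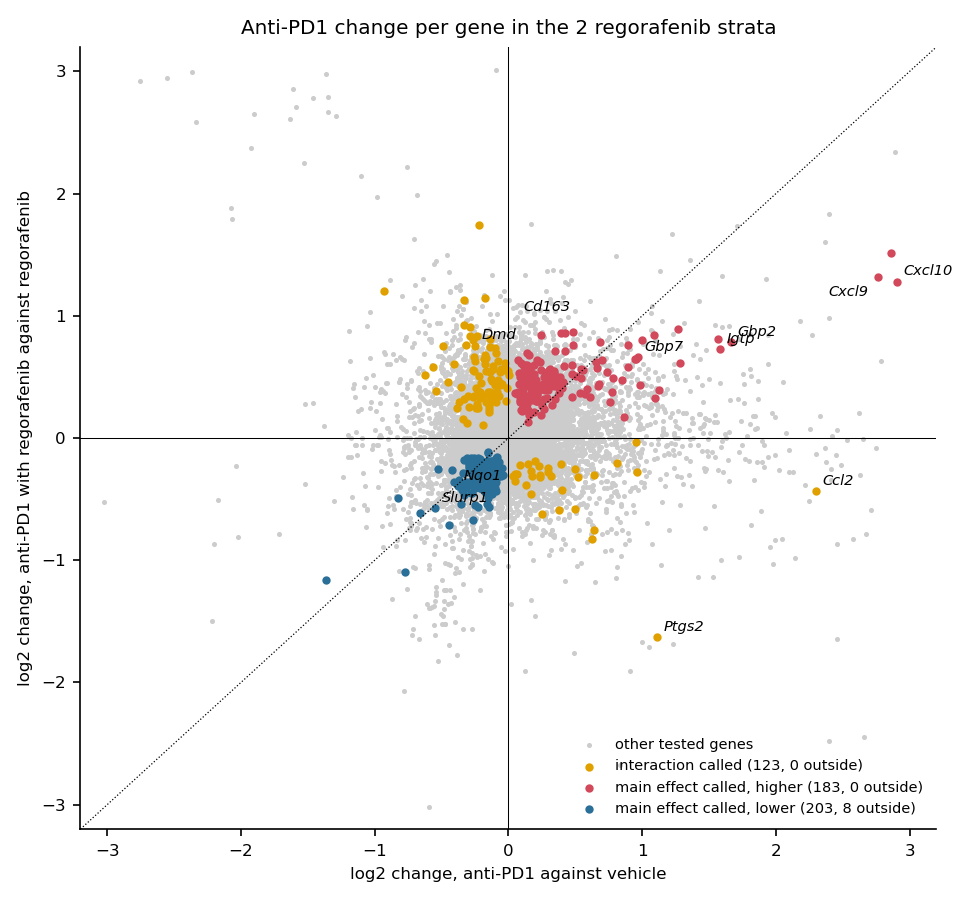
Each point is a gene, with its log2 change for anti-PD1 against vehicle on the x axis and for the combination against regorafenib on the y axis; the dotted diagonal marks equal change. Red points (183) and blue points (203) are the genes called for the main effect and lie mostly in the upper right and lower left of the plot; yellow points (123) are genes whose change differed between the strata, such as Ccl2 and Ptgs2.

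Cxcl9 and Cxcl10, which encode T-cell-attracting ligands of CXCR3, rose. Cxcl9 (ENSMUSG00000029417.9, chr5:92321347-92328079 on GRCm38, whole gene) had 1.99, 4.49, 8.10 and 2.96 CPM in the vehicle libraries and 21.5, 22.4 and 44.8 CPM with anti-PD1. In the regorafenib libraries it had 0.746, 6.21, 3.21 and 8.74 CPM, and in the combination 14.4, 8.82, 7.75, 23.4 and 5.44 CPM. The anti-PD1 libraries lay entirely above vehicle, while 2 combination libraries fell within the regorafenib range. The main effect was 1.97 ± 0.44 on the log2 scale (SE; adjusted p = 0.0407, edgeR), 2.77 without and 1.32 with regorafenib.

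Cxcl10 (ENSMUSG00000034855.13, chr5:92346638-92348889), its neighbour on the chromosome, went the same way. Vehicle libraries had 0.755, 2.27, 3.25 and 1.71 CPM, and anti-PD1 libraries 13.7, 11 and 19.6 CPM. Regorafenib libraries had 0.631, 2.26, 1.86 and 3.11 CPM, and combination libraries 9.49, 1.66, 1.78, 9.06 and 2.00 CPM. Only combination 1 and 4 rose above the regorafenib libraries, and the other 3 lay among them. The main effect was 2.03 ± 0.47 (adjusted p = 0.0407, edgeR), 2.90 without and 1.28 with regorafenib, and the difference between strata did not pass the test (adjusted p = 0.353). Each of the pair was called in 3 of the 16 fits that leave out a library, with adjusted p up to 0.0857 for Cxcl9 and 0.0887 for Cxcl10. Of the 4 genes of the axis, the third ligand, Cxcl11 (log2 change 0.49, adjusted p = 0.104), and the receptor were not called.

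Interferon-inducible GTPases had positive main effects throughout. These proteins, the guanylate-binding proteins (Gbp genes) and the immunity-related GTPases (Irgm1, Irgm2, Igtp, Tgtp2), attack the vacuoles of intracellular microbes and are standard targets of interferon-gamma. All 17 had positive estimates, with a median log2 change of 0.91 against 0.00 for all tested genes. Of the 17, 10 were called, beside 1.09% of all tested genes called higher. The median was 1.13 without and 0.73 with regorafenib. With 1 library left out, between 0 and 12 of the 17 were called, and the median stayed between 0.72 and 1.01. None was called in the stratum with regorafenib alone by edgeR.

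Gbp2 (ENSMUSG00000028270.12, chr3:142620602-142638008) had the largest called rise of the family. Its levels were 9.90, 14.3, 17.0 and 12.4 CPM with vehicle and 38.0, 26 and 63 CPM with anti-PD1, with no overlap. With regorafenib they were 8.09, 12.8, 12.5 and 17.3 CPM, and with the combination 32.5, 17.1, 17.3, 25.8 and 16.8 CPM. Combination 1 and 4 were again the highest of their group, and combination 2, 3 and 5 fell below the highest regorafenib library. The main effect was 1.18 ± 0.23 (adjusted p = 0.0407, edgeR). Gbp7 and Irgm1 were the members without overlap in either stratum, as 50 of all tested genes were in this direction (0.298%). Irgm1 had 15.8, 28.4, 24.5 and 23.8 CPM with vehicle, 35.8, 35.6 and 62.8 CPM with anti-PD1, 13.3, 19.7, 18 and 21.5 CPM with regorafenib, and 37.9, 21.7, 22.5, 35.8 and 24.4 CPM with the combination. Its main effect was 0.79 ± 0.17, and that of Gbp7 0.80 ± 0.16. Tgtp2 (1.16 ± 0.27), Igtp (1.11 ± 0.25), Gbp3 (0.95 ± 0.21), Irgm2 (0.91 ± 0.22), Gbp6 (0.82 ± 0.19), Gbp5 (0.73 ± 0.18) and Gbp4 (0.67 ± 0.16) were also called. The annotated spans of Igtp and Irgm2 overlap, and several GTPases have near-identical copies, so reads may be split between them.

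**Figure D3:**
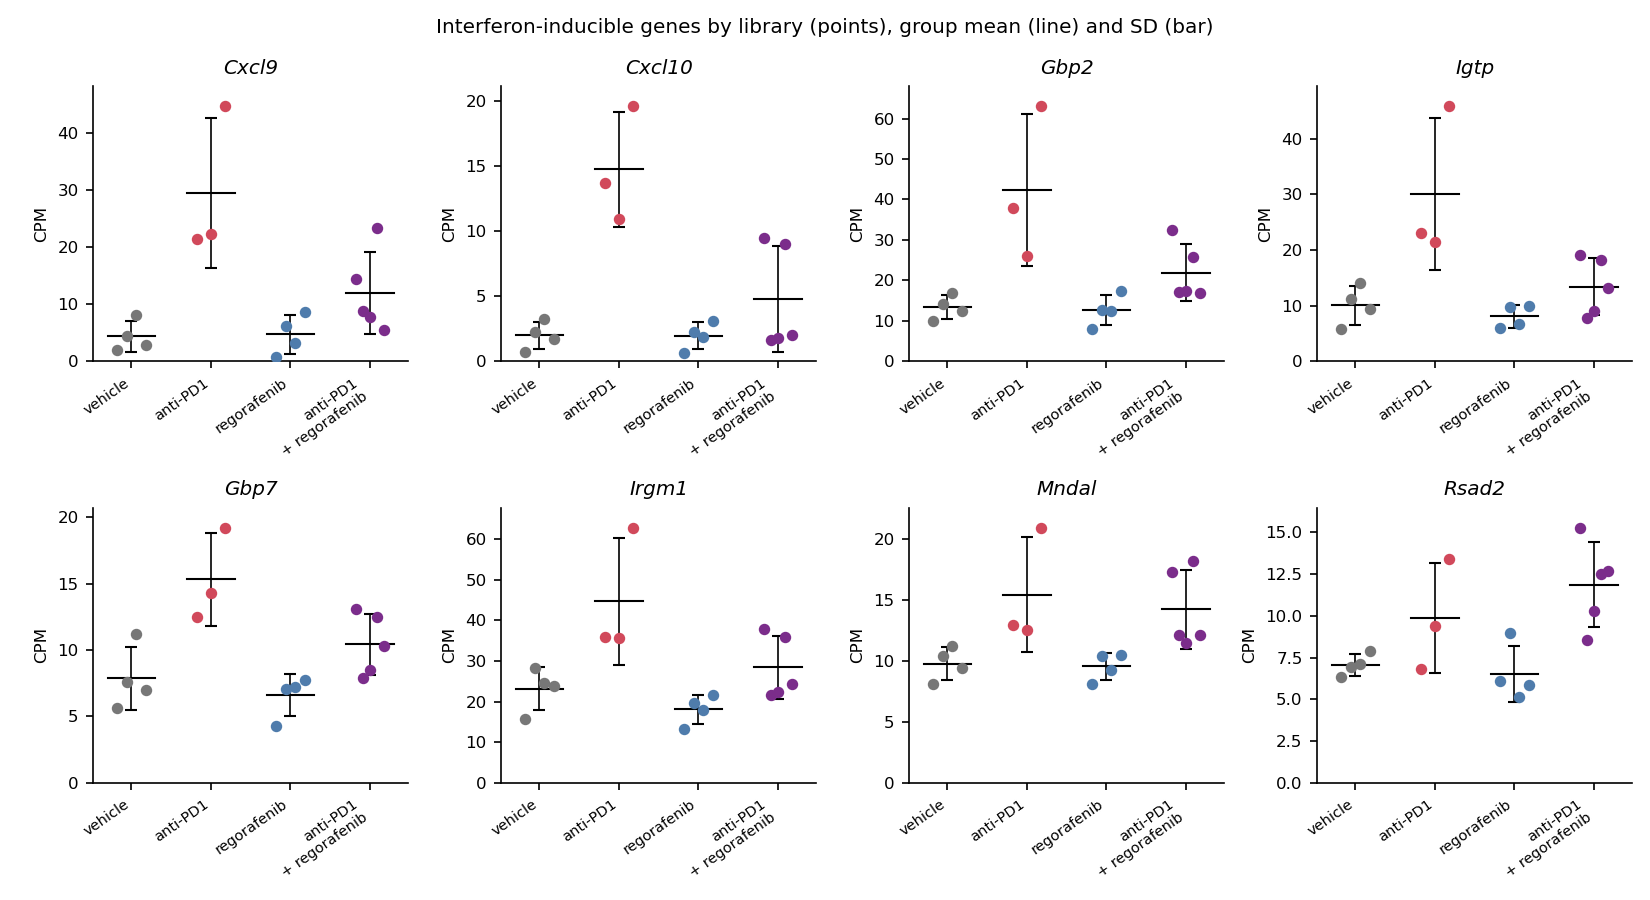
Level in CPM (y axis) of 8 interferon-inducible genes in each library (points) of the 4 groups, with the group mean (line) and SD (bar). For Cxcl9, Cxcl10, Gbp2 and Igtp the 3 anti-PD1 libraries lie above all vehicle libraries, while the 5 combination libraries spread from the regorafenib range upward.

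The promoters of this family are shown because the members that moved together carry the same short element. Both elements named here were searched on both strands in the 300 bases around the start of 11960 tested genes with a RefSeq promoter (GRCm38.p6): the core of the interferon-stimulated response element bound by IRF factors (GAAA, any 2 bases, GAAA), and TTCNNNGAA, the gamma-activated site of interferon-gamma targets. The response element was in 10 of 11 GTPase promoters (90.9%), in 19 of 139 promoters of all higher genes (13.7%), in 10 of 147 of lower genes (6.8%) and in 3.09% of all. The 19 include the 8 called GTPases with a promoter, so the share of the higher genes rests in part on this family. The family was listed as interferon-inducible, so its own share is a description and no support. The gamma-activated site was in 6 of the 11 (54.5%) and in 6.91% of all. In Gbp2 the element lies on the reverse strand, 59 bases before the RefSeq start. That start and the match both lie inside the whole-gene span given above, which begins further upstream. The window, chr3:142620413-142620712 on the plus strand, is shown 5′ to 3′ with the match in capitals.
Gbp2: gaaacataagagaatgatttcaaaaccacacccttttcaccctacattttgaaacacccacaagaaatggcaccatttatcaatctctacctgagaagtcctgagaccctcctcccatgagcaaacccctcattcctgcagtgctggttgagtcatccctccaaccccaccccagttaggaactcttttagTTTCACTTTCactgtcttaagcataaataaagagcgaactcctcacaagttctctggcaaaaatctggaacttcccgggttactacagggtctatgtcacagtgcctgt

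The same element in the other called members with a promoter is shown in 30-base windows, each on its gene's sense strand with the first match in capitals, read in the sense given or as its reverse complement (TTTC, any 2 bases, TTTC). Igtp and Irgm2 share nearly the same window. The matches lie between 30 bases (Irgm1) and 165 bases (Gbp5) before the start.
Gbp7: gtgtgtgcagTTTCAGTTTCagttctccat
Gbp3: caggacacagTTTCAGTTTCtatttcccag
Gbp5: acttgtgtagTTTCAATTTCagtttagaga
Irgm1: cctgtttcaaGAAATAGAAAccgaaactga
Igtp: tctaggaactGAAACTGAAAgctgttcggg
Irgm2: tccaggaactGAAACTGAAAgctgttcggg
Tgtp2: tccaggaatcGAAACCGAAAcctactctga
Cxcl9, the called chemokine with the smallest p, held neither element in its window, and Cxcl10 held the response element 213 bases before the start. A match is a description of letters, not of binding.

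Interferon-inducible p200 genes, DNA sensors clustered on chromosome 1, formed a list made after values were seen, so their count is no support. Of 10 tested, 5 were called higher, with a median of 0.59 that was nearly equal without (0.61) and with regorafenib (0.56). Mndal had 8.11, 10.4, 11.2 and 9.45 CPM with vehicle and 12.9, 12.5 and 20.9 CPM with anti-PD1. With regorafenib it had 8.09, 10.4, 9.30 and 10.5 CPM and with the combination 17.3, 12.1, 11.5, 18.2 and 12.1 CPM, so neither stratum overlapped (main effect 0.61 ± 0.13, adjusted p = 0.0407, edgeR). Ifi209 (1.06), Ifi211 (0.67), Ifi203 (0.56) and Ifi204 (0.56) were the others, and Mndal and Ifi203 overlap on the genome.

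Genes of the type I interferon response all had positive estimates but seldom passed. The median of 23 was 0.67, 0.75 without and 0.60 with regorafenib, and 21 had an unadjusted p under 0.05. Called were Rsad2, which encodes the antiviral enzyme viperin, and Ifit2, which encodes an RNA-binding antiviral protein. Rsad2 rose more with regorafenib (log2 change 0.86, adjusted p = 0.0146) than without (0.49, adjusted p = 0.484), a difference that did not pass the test (adjusted p = 0.567). DESeq2 called 7 of the 23 and limma-voom 3, beside 1594 and 1686 of all 16797 tested genes.

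Antigen presentation genes had mostly positive main effects, and none was called. Of 19 genes of MHC class I presentation 16 were positive, with a median of 0.21, and edgeR called 0, with 11 at an unadjusted p under 0.05, 2 called by DESeq2 and 0 by limma-voom. Their median change was 0.48 without regorafenib, where all 19 were positive, and 0.04 with it. Of all 16797 tested genes, DESeq2 called 1594 and limma-voom 1686. B2m, the class I light chain gene, had a change of 0.34 ± 0.12 (adjusted p = 0.11), 0.64 without and 0.11 with regorafenib. H2-K1, a classical class I heavy chain gene, had 0.54 and -0.02 in the 2 strata. For 10 class II genes edgeR, DESeq2 and limma-voom called 0, with 1 at an unadjusted p under 0.05. All 10 were positive in the main effect, with a median of 0.29. Their median was 0.84 without regorafenib, all 10 positive, and -0.11 with it, 1 positive. In H2-DMb1, a subunit of the class II peptide exchanger, the strata differed (interaction -1.02, adjusted p = 0.0413, edgeR).

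Upstream of these targets the data were thin. Of 13 tested genes of interferon-gamma signalling edgeR called 0, with 5 at an unadjusted p under 0.05, 2 called by DESeq2 and 0 by limma-voom. Over all tested genes, 4121 of 16797 had an unadjusted p under 0.05, and DESeq2 called 1594 and limma-voom 1686. Irf1, a transcription factor and early target of the pathway, changed by 0.37 ± 0.14 (adjusted p = 0.132). Every anti-PD1 library lay above every vehicle library for Irf1, and the combination overlapped regorafenib. The share of all tested genes that separated so in 1 stratum was not counted. Ifng itself was too low for the count filter: 0 counts in each vehicle library, 3, 1 and 4 with anti-PD1, 2, 2, 2 and 0 with regorafenib, and 1, 0, 2, 3 and 1 with the combination. Gzmb and Prf1, killing proteins of cytotoxic lymphocytes, had at most 12 and 8 counts in any library. Prf1 had 3, 2, 0 and 1 counts with vehicle and 1, 4 and 5 with anti-PD1. It had 1, 1, 1 and 4 with regorafenib and 8, 4, 7, 7 and 2 with the combination. Gzmb had 4, 2, 2 and 2 with vehicle and 4, 4 and 12 with anti-PD1. It had 6, 6, 3 and 9 with regorafenib and 3, 2, 4, 6 and 2 with the combination. Ifng, Gzmb and Prf1 did not pass the filter on low counts, so a change in them was not tested in the main fit.

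The PD1 gene and its ligand were given whatever their values. Pdcd1 was 0.208 to 0.756 CPM with vehicle and 0.535 to 1.11 CPM with anti-PD1, and 0.846 to 1.55 CPM with regorafenib and 0.390 to 1.20 CPM with the combination (main effect 0.06 ± 0.27, adjusted p = 0.902). The antibody acts on the protein, so RNA is no check of the treatment. Cd274, the PD-L1 gene, is itself induced by interferon-gamma and changed by 0.58 ± 0.17 (adjusted p = 0.0702), 0.84 without and 0.37 with regorafenib.

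Leukocyte genes had mostly positive estimates with few calls. Of 20 T-cell genes 1 was called, Cd2, an adhesion receptor (0.62 ± 0.15, adjusted p = 0.0457, edgeR). The list's median was 0.75 without regorafenib and -0.12 with it. Cd3e, Cd4, Cd8a and Foxp3 were not called, with main effects of 0.43, 0.65, 0.57 and 0.66 and adjusted p from 0.11 to 0.296 (edgeR). Each lay higher with anti-PD1 than vehicle in every library and overlapped between the combination and regorafenib. How many of all tested genes separated so in 1 stratum was not counted, so this is a description. Among 18 pan-leukocyte genes, Itgb2, the leukocyte integrin beta chain (0.50 ± 0.11), Wipf1, an actin regulator (0.38 ± 0.09), and Rac2, a haematopoietic GTPase (0.48 ± 0.12), were called higher. The median of that list was 0.54 without and 0.09 with regorafenib. Rac2 had 2.65 to 3.48 CPM with vehicle and 5.15 to 5.62 CPM with anti-PD1. It had 3.16 to 4.61 CPM with regorafenib and 3.84 to 4.52 CPM with the combination, which overlapped. Ccr2, the monocyte chemokine receptor, rose by 0.37 ± 0.09, 0.38 without and 0.37 with regorafenib. DESeq2 called 0 of the T-cell genes and 5 of the pan-leukocyte genes, beside 1594 of all 16797 tested genes.

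Macrophage genes had positive estimates in the 2 strata. Of 15 pan-macrophage and complement genes 14 were positive, with medians of 0.48 without and 0.29 with regorafenib, and Mpeg1, which encodes the pore-forming protein perforin-2, was called (0.64 ± 0.14, adjusted p = 0.0407, edgeR). Of 16 receptors of M2-type macrophages, Selenop was called (0.33 ± 0.08). Cd163, a haemoglobin scavenger receptor, was not called for the main effect (0.58, adjusted p = 0.0583); it changed by 0.06 without regorafenib and rose by 0.99 with it (adjusted p = 0.00241), and the difference did not pass (adjusted p = 0.0629). Vcam1, an adhesion molecule for leukocytes, rose by 0.64 ± 0.15, with 0.66 and 0.62 in the 2 strata. Hk3, a myeloid hexokinase gene, rose by 0.90 ± 0.18. C3ar1, the receptor for complement C3a, was in no list and was chosen after its value was seen: it rose by 0.78 ± 0.14 (adjusted p = 0.0333), with no overlap in either stratum.

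Of 20 fibroblast and matrix genes all had positive main effects, with medians of 0.37 without and 0.27 with regorafenib, and 1 was called. This was Pdgfra, which encodes the platelet-derived growth factor receptor alpha of fibroblasts. Pdgfra had 34.1, 33.8, 32.3 and 32.2 CPM with vehicle and 45.1, 35.6 and 32.7 CPM with anti-PD1, which overlapped. With regorafenib it had 27.7, 23.9, 25.5 and 24.4 CPM and with the combination 47.0, 33.6, 41.8, 37.1 and 31.8 CPM, which did not overlap. Its main effect was 0.42 ± 0.09 (adjusted p = 0.0407, edgeR), 0.19 without and 0.59 with regorafenib. Abcc9, a potassium channel subunit of pericytes, changed by 0.15 without and 0.68 with regorafenib. Of 21 skeletal muscle genes 1 was called, Cacna1s, the calcium channel of muscle excitation (0.09 without and 0.61 with regorafenib), and 13 rose in the stratum with regorafenib alone, where 7.24% of all tested genes did. The muscle list's median was 0.04 without and 0.49 with regorafenib, beside the low summed muscle level of the regorafenib libraries. Ccng1, the p53 target cyclin G1, rose by 0.33 ± 0.07 with no overlap in either stratum, while 11 other p53 targets were not called.

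Ordered by stratum, the gene lists fall into a few patterns. Type I interferon, p200 and fibroblast lists had similar medians in the 2 strata; class II, T-cell and neutrophil lists had positive medians without and negative ones with regorafenib; and the muscle median was near 0 without and 0.49 with it. No test of a list was made, so these are descriptions. In all, 22 of 41 lists had no member called by edgeR, among them proliferation, salivary gland, erythroid and mast cell genes, with 0 at an unadjusted p under 0.05 and 0 called by DESeq2 or limma-voom. Mki67, the proliferation marker, changed by -0.07 ± 0.07 (adjusted p = 0.569).

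**Figure D4:**
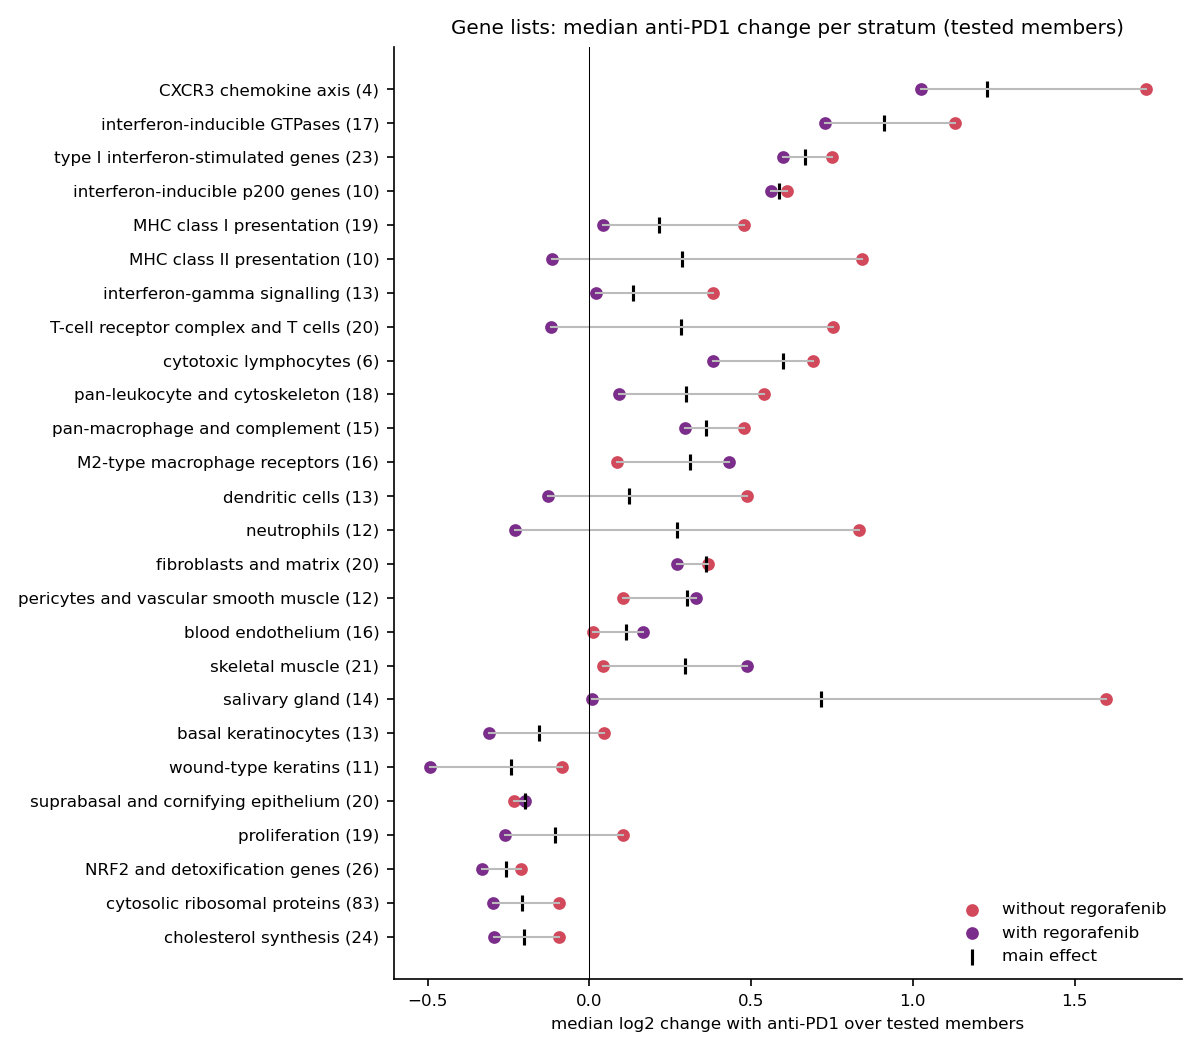
Median log2 change with anti-PD1 over the tested members of 26 gene lists (number in brackets), without regorafenib (red), with regorafenib (purple) and in the main effect (tick). The interferon-inducible GTPases lie at 1.13 and 0.73, while the T-cell list lies at 0.75 without and -0.12 with regorafenib.

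Among the lower genes were NRF2 targets and detoxifying enzymes. NRF2 is a transcription factor that turns on enzymes against oxidants and reactive chemicals. The list was made after values were seen and is a description. None of its 26 genes had a positive main effect, 11 were called lower, the median was -0.26, and 10 had an unadjusted p under 0.05 in each stratum. Over all tested genes 1.21% were called lower, and 0.941% fell at that p in both strata. Between 1 and 20 were called when a library was left out.

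Cbr3 (ENSMUSG00000022947.8, chr16:93683215-93690990), a carbonyl reductase gene, had 129, 122, 129 and 118 CPM with vehicle and 89.6, 103 and 106 CPM with anti-PD1. With regorafenib it had 144, 144, 123 and 131 CPM, and with the combination 101, 114, 102, 113 and 97.5 CPM. Neither stratum overlapped, and the change was -0.34 ± 0.05 (adjusted p = 0.0162, edgeR), -0.32 without and -0.36 with regorafenib. Nqo1 (chr8:107388225-107403206), the quinone reductase gene that is a standard NRF2 target, had 233, 219, 275 and 217 CPM with vehicle and 160, 186 and 197 CPM with anti-PD1. With regorafenib it had 274, 235, 230 and 217 CPM and with the combination 181, 195, 158, 188 and 186 CPM. It too did not overlap in either stratum, as 41 tested genes did in this direction (0.244%), and its change of -0.39 ± 0.07 (adjusted p = 0.0333) was the same size without (-0.38) and with (-0.39) regorafenib. Taldo1, of the pentose phosphate pathway, was the other called member of the list without overlap, at -0.20 ± 0.05. Blvrb (-0.34), Ces1b (-0.39), Htatip2 (-0.30), Ptgr1 (-0.32), Gsta4 (-0.29), Adh7 (-0.33), Cbr1 (-0.24) and Gpx2 (-0.28) were the remaining called members. The glutathione synthesis gene Gclc (-0.40, adjusted p = 0.063) and Hmox1 (-0.12, adjusted p = 0.29) were not called.

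**Figure D5:**
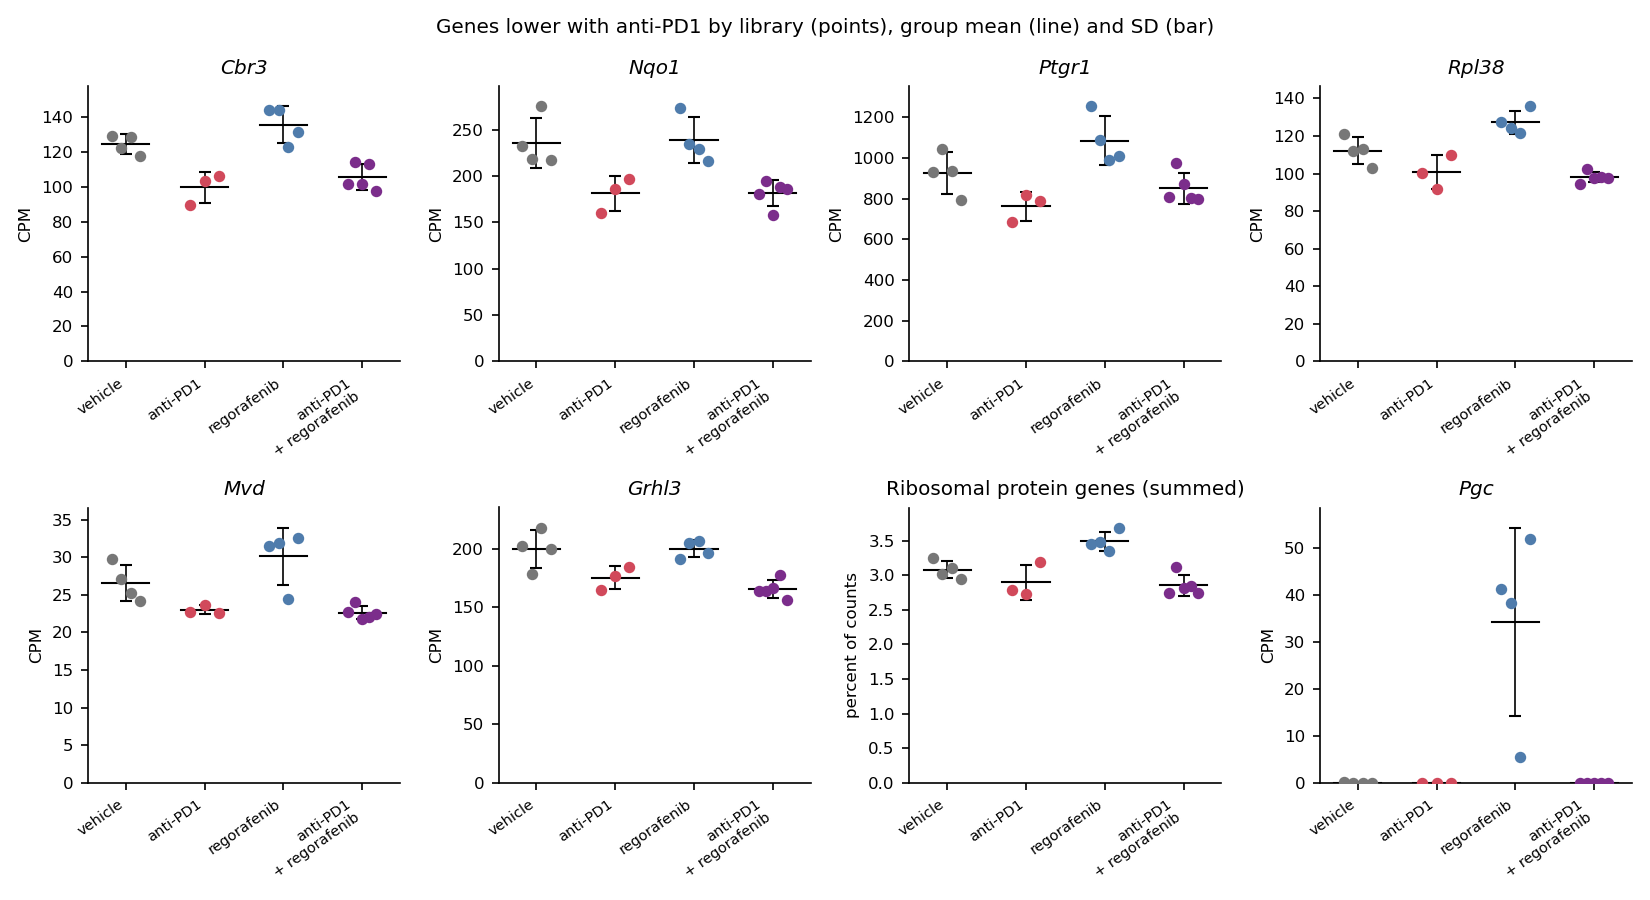
Level of 6 genes, the summed share of counts from 83 ribosomal protein genes, and Pgc, by library (points) with group mean (line) and SD (bar; cut at 0). Cbr3 and Nqo1 lie lower with anti-PD1 in both strata, the ribosomal share is highest in the regorafenib libraries, and Pgc is far higher in the regorafenib libraries than in the other 12, which hold at most 0.119 CPM.

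Genes for the proteins of the cytosolic ribosome fell together by small steps. The list, also made after values were seen, held 83 tested genes, of which 29 were called lower, 0 higher and 1 was positive. The median was -0.21, -0.09 without and -0.30 with regorafenib. The median exon length of these genes was 1739 bases, against 3959 for all tested genes. Together they made up 2.948% to 3.242% of counts with vehicle and 2.731% to 3.191% with anti-PD1, which overlapped. They made up 3.354% to 3.684% with regorafenib and 2.745% to 3.119% with the combination, which did not. The regorafenib libraries were thus the highest of all, and the lower level of the combination lay within the range of the vehicle and anti-PD1 libraries. Rpl38 fell by 0.28 ± 0.05 (adjusted p = 0.0333, edgeR), -0.16 without and -0.38 with regorafenib. Rpl23 was the called member without overlap in either stratum: vehicle libraries had 548, 544, 536 and 534 CPM and anti-PD1 libraries 447, 439 and 530 CPM. The count ran from 0 to 70 when a library was left out. Ribosomal protein genes have many pseudogene copies, 10 of which were also called lower, so reads may be split.

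Enzymes of cholesterol synthesis were lower as well, again as a list made after values were seen. Of 24 genes 7 were called lower, with a median of -0.20, -0.09 without and -0.29 with regorafenib. Mvd, the mevalonate decarboxylase gene, had 29.7, 27.1, 25.3 and 24.2 CPM with vehicle and 22.7, 23.7 and 22.6 CPM with anti-PD1. It had 31.4, 31.9, 24.5 and 32.6 CPM with regorafenib and 22.7, 24.0, 21.8, 22.1 and 22.5 CPM with the combination, so the groups did not overlap in either stratum (-0.32 ± 0.06, adjusted p = 0.0407, edgeR). Hmgcs1, the synthase at the head of the pathway, fell by 0.23 ± 0.05, and Lss and Acat2 changed by -0.24 and -0.35. Insig1, an inhibitor of the pathway, had a positive estimate and was not called (0.21, adjusted p = 0.3).

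Epithelial genes were slightly lower. Of 20 suprabasal and cornifying genes 19 had negative estimates, with medians of -0.23 without and -0.20 with regorafenib, and 1 was called, Grhl3, a transcription factor of epidermal barrier formation (-0.24 ± 0.05, adjusted p = 0.0407, edgeR). DESeq2 and limma-voom each called 6 of them, beside 1594 and 1686 of all 16797 tested genes. Slurp1, a secreted modulator of nicotinic receptors in keratinocytes, had 65.9, 46.4, 62.0 and 45.3 CPM with vehicle and 27.8, 37.7 and 47.2 CPM with anti-PD1. It had 44.5, 37.1, 50.1 and 45.8 CPM with regorafenib and 28.8, 25.2, 32.0, 42.3 and 20.7 CPM with the combination. Its change of -0.56 ± 0.14 (adjusted p = 0.0468) was alike in the 2 strata (-0.55 and -0.57), with overlap by 1 library in each. Notum, a secreted Wnt inhibitor, fell by 0.63 ± 0.16, -0.66 without and -0.62 with regorafenib. Fcamr, a receptor for IgA and IgM, fell by 0.63 ± 0.14. Krt14 changed by 0.19 without and -0.59 with regorafenib (main effect -0.25, adjusted p = 0.336), beside its high level in the regorafenib libraries.

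The largest falls by fitted value were those of stomach genes, and they rest on the regorafenib libraries. Of 12 tested stomach genes, 8 were called lower. Pgc had 2848 counts over the 4 regorafenib libraries, 0 over the 5 combination libraries, 5 over the 4 vehicle libraries and 1 over the 3 anti-PD1 libraries. Clps, which encodes a lipase cofactor, had 819, 3, 4 and 2 counts, and Gkn1, a gastric mucosal protein gene, 898, 3, 1 and 10 counts in the same order. Atp4a, the gastric proton pump gene, had 199, 11, 2 and 3 counts. Tff1, which was not called, had a like pattern (527, 48, 40 and 38 counts in the same order), as did Gif (29, 0, 0 and 0). Some other members of the list did not share this pattern. Chia1, a chitinase gene, had 345, 3406, 3166 and 855 counts in the same order, and Tff2, a gastric mucus peptide gene, 17617, 12495, 5676 and 27490, and neither was called (adjusted p = 0.666 and 0.84). With no regorafenib the 8 called genes had at most 10 counts in a group. Anti-PD1 and the presence of stomach RNA in the regorafenib libraries cannot be told apart for these 8 genes.

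The anti-PD1 change differed between the strata for 123 genes (0.732%) by the interaction test in edgeR, 91 with a more positive change under regorafenib and 32 with a more negative one. In 122 of the 123 the 2 changes had opposite signs. None was among the 386, in part because opposite changes cancel in the additive model. Dmd and Ppp1r12b, long genes expressed in muscle, were among those with the smallest p. Dmd, the dystrophin gene, had 94.4, 90.0, 90.1 and 96.0 CPM with vehicle, 76.5, 88.5 and 69.4 CPM with anti-PD1, 57.9, 60.7, 56.5 and 50.9 CPM with regorafenib and 93.2, 100, 107, 89.1 and 87.3 CPM with the combination. The regorafenib libraries were the lowest of all, and the interaction was 1.00 (adjusted p = 0.0035). The median exon length was 11850 bases for the 91 genes and 3959 for all tested genes. With offsets for exon length and GC content the interaction count was 44 and the main effect count 779. The median exon length of genes called for the main effect was then 4245 bases for higher and 3787 for lower genes.

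Ccl2, which recruits monocytes, went the other way. It had 0.755, 1.51, 0.906 and 0.883 CPM with vehicle and 6.18, 3.71 and 5.08 CPM with anti-PD1. With regorafenib it had 2.7, 0.975, 2.20 and 1.55 CPM and with the combination 2.34, 1.01, 0.892, 1.45 and 0.998 CPM. Anti-PD1 libraries alone stood above the rest, with changes of 2.30 without and -0.43 with regorafenib (interaction -2.74, adjusted p = 0.0231, edgeR). Ptgs2, the inducible prostaglandin synthase gene, changed by 1.11 without and -1.63 with regorafenib (interaction -2.74, adjusted p = 0.0178). Its levels were 2.56 to 4.69 CPM with vehicle, 5.32 to 11.3 CPM with anti-PD1, 7.27 to 18.1 CPM with regorafenib and 3.01 to 4.97 CPM with the combination. Traf1, a signalling adaptor of TNF receptors, changed by 0.95 and -0.03 (interaction -0.98, adjusted p = 0.047). In the main effect, Ccl2 had 0.81 (adjusted p = 0.235), Ptgs2 -0.46 (adjusted p = 0.513) and Traf1 0.40, and none of the 3 was called.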

How the data were processed

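RNA was measured in 19 oral tumour libraries, of which 16 entered the model. Libraries were stranded mRNA libraries from total RNA, per the labels' protocols. The submitters' processing notes name cutadapt 2.4, STAR 2.7.2a and GRCm38. Which tool counted reads, with which strand option and gene models, is not given in the sources used here, so overlapping and antisense genes are uncertain. The authors deposited whole-number counts per gene, not normalized, for 55487 Ensembl IDs, of which 55141 had a symbol in the reference table.

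Genes were filtered with filterByExpr over the 4 groups (16797 genes, 99.91% of counts), scaled by TMM and fitted in edgeR 4.0.16 (R 4.3.3) with terms for anti-PD1 and regorafenib (13 residual degrees of freedom). The interaction and the 2 stratum contrasts came from a model with 1 mean per group. P-values are two-sided and adjusted by Benjamini-Hochberg across the whole table and called at 0.05. Changes are log2 estimates ± SE, the SE being the change divided by the square root of F. List scores are mean log2 CPM with a prior count of 2. Coordinates are 1-based whole-gene spans of GENCODE M21 on GRCm38, and promoters are RefSeq windows of 250 bases before to 50 after the start, present for 71.2% of tested genes.

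Named genes were the 12 largest rises and falls among called genes with a proper symbol and a group mean of at least 1 CPM, the 3 members with the smallest p of each list with a called member, fixed immune genes, and the 3 smallest interaction p-values; the text prints some of them, as a few genes are not reported here, and other list members and genes where it says so. The members, the 37 lists and the tests were chosen with earlier results of these data known, and 4 lists were added after the values were seen. The alternatives comprised DESeq2 1.42.0, RLE scaling, no filter, limma-voom 3.58.1 with sample weights, all 19 libraries, replicate blocks, salivary and muscle scores as covariates, no regorafenib term, the mean of the stratum effects, and leaving out each library; offsets for length and GC content and a fit without the regorafenib libraries were added after seeing the data. Steps were tested on simulated data. The smallest chi-square per degree of freedom between libraries of a group was 12.9, so none was a duplicate. Figures used matplotlib 3.10.9.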

Additional observations from a re-analysis of the deposited data

Results flagged for a closer look

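The anti-PD1 change differed between the strata, by the interaction term in edgeR with adjusted p under 0.05, for 9 genes of the lists. The interaction (log2 change with regorafenib minus that without) was 0.92 for Neb and 0.82 for Ryr1, both of muscle, and 0.64 for Dst, a gene of basal keratinocytes. It was -2.74 for Ptgs2, -2.74 for Ccl2, -1.02 for H2-DMb1, -0.98 for Traf1, -0.54 for the heat shock gene Dnajb1 and -1.39 for the globin gene Hbb-bs. Neb, Ryr1 and Dst are long genes. By group mean, Neb, Ryr1 and Dst were lowest and Ptgs2, Dnajb1 and Hbb-bs highest in the regorafenib group. Of these, only Neb and Ryr1 had regorafenib libraries that did not overlap the other groups. Ccl2, H2-DMb1 and Traf1 had their highest mean with anti-PD1.

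A sample lay far from the others of its group in 11 of 235 groups examined, where about 12 would be flagged by chance. The anti-PD1 group, with 3 libraries, was too small for this check and was not examined. Among called genes, Rpl17-ps5 was low in vehicle 4 (1.35 CPM; others 1.87 to 1.97), and 3 stomach genes had a trace in a library where the rest had 0: Mucl3 (0.104 CPM) and Gkn2 (0.104 CPM) in vehicle 4, Gkn1 in vehicle 3 (0.0533 CPM) and Mucl3 in combination 4 (0.0482 CPM). Of the mean log2 CPM of lists, vehicle 3 was low for immediate early and heat shock genes (4.98; others 5.22 to 5.27). Regorafenib 4 was low for suprabasal and cornifying epithelium (9.4; others 9.7 to 9.73). Regorafenib 3 was low for p53 targets (4.64; others 4.76 to 4.77), oxidative phosphorylation (8.24; others 8.51 to 8.55) and stomach genes (0.628; others 2.5 to 2.81). Combination 3 was high for erythroid genes (4; others 3.28 to 3.38).

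In the libraries outside the comparison, anti-CD40 1 held 45 counts of Pgc, against at most 3 in a vehicle library.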

How the results depend on the processing

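The 386 genes called for the main effect became 501 with RLE scaling, 122 with no filter, 18 with all 19 libraries, 269 with the salivary score and 2 with the muscle score as covariate, 1594 with DESeq2, 1686 with limma-voom, 617 as the mean of the stratum effects and 779 with length and GC offsets. edgeR called 0 with no regorafenib term (3325 at an unadjusted p under 0.05) and 0 without the 4 regorafenib libraries (1604), a fit that compares anti-PD1 with vehicle only. Estimates of the 386 genes kept their sign in each of these fits that held them. The interaction count of 123 became 78 with all libraries, 349 with the salivary and 2 with the muscle score, 699 with DESeq2 and 44 with offsets. Without regorafenib the count of 0 became 3 with no filter, 1 with all libraries and 106 with DESeq2. With regorafenib, 2223 became 1443 with no filter and 2 with the muscle score. Leaving out 1 library gave 5 to 1519 for the main effect, 6 to 214 for the interaction, 0 to 4 without and 973 to 2378 with regorafenib. Of 39 named called genes, 3 (Pgc, Clps and Pla2g1b) were called in every such fit. The sign turned for Krt14 (0.10 with the muscle score, 0.19 without the regorafenib libraries), for Dmd (-0.25) and Ppp1r12b (-0.17) without the regorafenib libraries, and for Pdcd1 (-0.05 without vehicle 4, -0.069 without anti-PD1 2). The cause was not tested.

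Same-numbered libraries did not deviate together (r from -0.46 to 0.55, over 0.1 in 8 of 21 pairs), so numbers were not taken as pairs. With the replicate block by title number the counts were 7 for the main effect, 3 for the interaction, 0 without and 1434 with regorafenib; by column number they were 2, 2, 0 and 1909.

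Of 41 lists' medians recomputed, 15 of 861 values moved by more than the spread between replicates. Ifng, Gzmb and Prf1 did not pass the filter on low counts and were not tested in the main fit.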
